A study of Macaca mulatta with 80 samples.

Results

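Gene expression in the dentate gyrus (DG) was compared with that in CA3 in 8 infant rhesus monkeys, 4 aged 6 months and 4 aged 1 year. These groups gave 16 of the study's 80 arrays: 4 DG and 4 CA3 arrays at each age, with 1 DG and 1 CA3 array for each title number from 5 to 12. All animals were male and none was labelled with a genotype or a treatment. Both regions had been cut by microdissection through all their layers, at the level of the body of the hippocampus, after the slices were kept in an RNA preservative. The remaining arrays are those of newborn (1 day) and adult monkeys and of the entorhinal cortex (EC), CA1 and subiculum (Sub). Of these, 4 newborn pairs of DG and CA3 are used for comparison, and EC, CA1 and Sub at the same infant ages only to place the levels.

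DG and CA3 are neighbouring stations of the hippocampal circuit. Granule cells, the main neurons of DG, are small, densely packed cells that receive the perforant path from the entorhinal cortex. Their axons, the mossy fibres, end on the pyramidal cells of CA3 in large terminals rich in zinc, and CA3 pyramidal cells excite each other and CA1. DG is also a region in which neurons are still made after birth, so infant DG holds stem cells and young granule cells beside mature ones. Each array read the RNA of a whole tissue piece. Fewer cells of a type and less RNA per cell therefore cannot be told apart in any value below, and mossy fibre or interneuron RNA present in either piece is included in it.

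Values are log2 signals of a human expression array after quantile normalization over the 80 arrays. A difference is DG minus CA3 within a number, so 1 log2 is a doubling of signal in DG, and it is averaged over both ages with the SE of the limma fit (n = 8 pairs). A gene was called when its p from limma, adjusted by Benjamini-Hochberg over 19,775 genes, was under 0.05. The log2 ratio of the 3′ to the 5′ control probe sets of GAPDH, which rises as RNA degrades, was low in both regions, which the choice of these arrays already took into account. It averaged 1.16 in DG (0.998 to 1.43) and 1.16 in CA3 (0.918 to 1.30), and was higher in DG in 4 of 8 pairs. The actin ratio averaged 3.35 in DG and 3.47 in CA3, and was higher in DG in 1 of 8 pairs (two-sided exact sign-flip permutation p = 0.0156; the smallest possible is 0.00781). The GAPDH ratio averaged 2.99 in infant CA1 and 2.70 in adult CA3, and ran from 1.25 to 2.79 in EC and Sub, so levels in CA1 are given only as a description and adult CA3 was not compared. The DG array of number 5, from a 1-year-old, stood apart from the other DG arrays: on the second principal component of the 16 arrays, which held 21.4% of the variance, it lay at 32.9 against −10.1 to 14.2. On the first component, which held 34.0% and separated the regions, it lay at 0.26 against 9.88 to 20.3 for the other DG arrays and −20.6 to −8.73 for CA3.

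Infant DG and CA3 differed in 4498 of 19,775 genes (22.7%). Of these, 2405 were higher in DG (12.2% of those tested) and 2093 higher in CA3 (10.6%). Without number 5 the count was 4396, of which 4043 were the same genes, and without the pairing of arrays by number it was 2967. Differences of at least 1 log2 were few: 102 genes (0.516%), with 62 higher in DG (0.314%) and 40 higher in CA3 (0.202%). With the mean of all probe sets of a symbol there were only 42. In 589 genes (2.98%) the 8 DG arrays and the 8 CA3 arrays did not overlap, 341 with DG above CA3 (1.72%) and 248 with CA3 above DG (1.25%). The median difference over all genes tested was −0.01.

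Among named genes higher in DG the largest difference was that of MALAT1, a long noncoding RNA held in nuclear speckles. Its signal ran from 9.85 to 11.43 in DG (median 10.71) and from 5.46 to 7.53 in CA3 (median 6.70), a difference of 4.20 ± 0.145 (adjusted p = 3.15e-12). All DG arrays lay above all CA3 arrays, but MALAT1 has 12 probe sets on the array, of which 9 of the other 11 had the same sign, and the mean of all 12 gave only 0.54. The fold given here is thus that of 1 probe set.

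GRP, the gastrin-releasing peptide, had the next largest difference. Its signal ran from 9.62 to 10.55 in DG (median 9.96) and from 6.61 to 8.12 in CA3 (median 7.18), with no overlap. The difference of 2.69 ± 0.110 (adjusted p = 1.24e-11) is a 6.45-fold higher signal, and the 8 pairs gave 1.88 to 3.32. GRP had 1 probe set. Its mean level was 6.56 in EC, 6.05 in CA1 and 7.18 in Sub, so DG stood above the other 4 regions at these ages.

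BTG1, which restrains cell division, was at 10.12 to 10.57 in DG (median 10.33) and at 8.06 to 8.95 in CA3 (median 8.45). Its difference was 1.86 ± 0.0699 (adjusted p = 4.57e-12), without overlap, and both other probe sets had the same sign. KCNJ4, which encodes the inward rectifier potassium channel Kir2.3, was very even in DG, at 10.36 to 10.68 (median 10.59), and more spread in CA3, at 8.19 to 9.36 (median 8.99). Its difference was 1.71 ± 0.0806 (adjusted p = 4.52e-11). DG was not the region with most KCNJ4: EC averaged 10.77, DG 10.56, CA1 10.35 and Sub 10.16, and CA3 lay below all of them at 8.85.

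The other genes leading in DG differed by 1.54 to 1.70. ADGRG2, an adhesion G protein-coupled receptor, was at 5.90 to 7.87 in DG (median 7.39) and at 4.98 to 6.01 in CA3 (median 5.55). Its difference was 1.70 ± 0.116, and the lowest DG array lay within the CA3 range. The arrays of the regions did not overlap for the remaining 7, GARNL3 (1.68 ± 0.0585), the alpha-1A adrenergic receptor ADRA1A (1.65 ± 0.0775), the guanine nucleotide exchange factor DOCK10 (1.59 ± 0.0770), SERTAD4BP (1.58 ± 0.0599), the transcription factor of young neurons SOX4 (1.56 ± 0.0600), the sodium channel SCN3A (1.55 ± 0.0752) and the astrocyte enzyme ALDH1L1 (1.54 ± 0.0850). For ADRA1A 1 of 4 other probe sets had the same sign, and for SCN3A and ALDH1L1 their only other probe set had the opposite one. ALDH1L1 in DG was at 9.26 to 9.84 in 7 arrays and at 8.59 in number 5, and without that number its difference was 1.64.

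**Figure D1:**
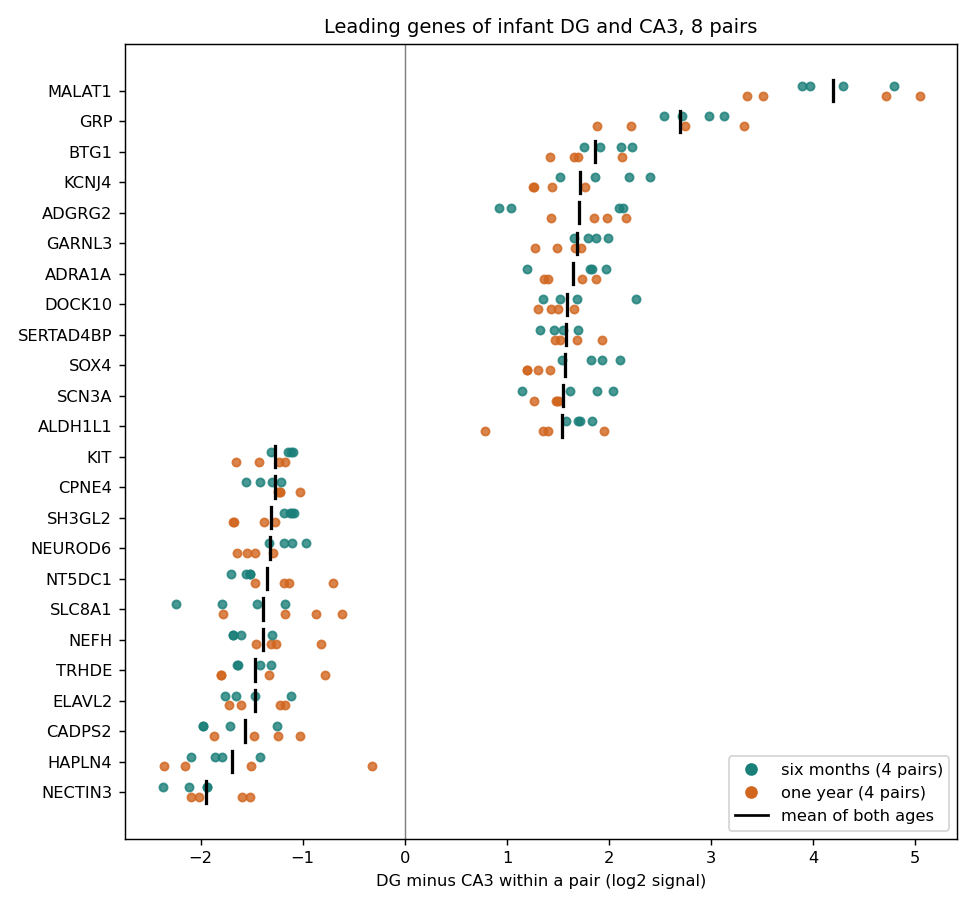
DG minus CA3 in log2 signal within each of the 8 pairs for the 12 leading genes higher in DG and the 12 higher in CA3, with pairs of 6 months in green, pairs of 1 year in orange and the mean of both ages as a black bar. MALAT1 (4.20) and GRP (2.69) lie apart from the other genes. That every pair of a gene lies on the same side of 0 was a condition for its choice.

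Among named genes higher in CA3 the largest difference was that of NECTIN3, an adhesion molecule of synapse-flanking junctions. It was at 7.65 to 8.23 in CA3 (median 8.02) and at 5.66 to 6.53 in DG (median 6.01). The difference of −1.95 ± 0.0696 (adjusted p = 3.31e-12) is a 3.86-fold higher signal in CA3, the ranges did not overlap, and the other probe set had the same sign. Mean levels in EC (5.82) and Sub (5.68) were near that of DG, and CA1 lay between at 7.08.

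HAPLN4, a link protein of perineuronal nets, was at 7.72 to 8.76 in CA3 (median 8.38) and at 6.21 to 7.44 in DG (median 6.57), a difference of −1.69 ± 0.147 (adjusted p = 1.23e-07). The arrays did not overlap, but the pairs were uneven: the difference was −0.32 in number 6, whose DG array was the high one at 7.44, and −2.36 at the other end. CA3 was not the region with most HAPLN4, since Sub averaged 9.62.

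ELAVL2, a neuronal RNA-binding protein, was at 9.84 to 10.42 in CA3 (median 10.21) and at 8.11 to 9.04 in DG (median 8.70). It differed by −1.47 ± 0.0735 (adjusted p = 8.28e-11), and was as high in EC (10.24) as in CA3 (10.12). NEUROD6, a transcription factor of pyramidal neurons, was at 9.85 to 10.33 in CA3 (median 10.25) and at 8.40 to 9.17 in DG (median 8.91). Its difference was −1.32 ± 0.0555 (adjusted p = 1.26e-11). Here CA3 stood alone: DG, EC, CA1 and Sub averaged 8.85, 8.74, 8.73 and 8.86.

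The others leading in CA3 were CADPS2 (−1.57 ± 0.0863), which primes dense-core vesicles for release, TRHDE (−1.47 ± 0.0878), the enzyme that degrades thyrotropin-releasing hormone, the heavy neurofilament NEFH (−1.39 ± 0.0666), the sodium-calcium exchanger SLC8A1 (−1.39 ± 0.110), NT5DC1 (−1.35 ± 0.0663), endophilin A1, SH3GL2 (−1.31 ± 0.0554), copine 4, CPNE4 (−1.27 ± 0.0529), and the receptor tyrosine kinase KIT (−1.27 ± 0.0577). Adjusted p-values of these 8 ran from 1.26e-11 to 3.35e-08. The same sign in all 8 pairs was a condition for choosing each leading gene. SLC8A1 has 11 probe sets, of which 9 of the other 10 had the same sign, and their mean was −0.24. CPNE4 was among the most even of these genes, at 9.47 to 9.83 in CA3 (median 9.70) and 8.18 to 8.53 in DG (median 8.39).

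**Figure D2:**
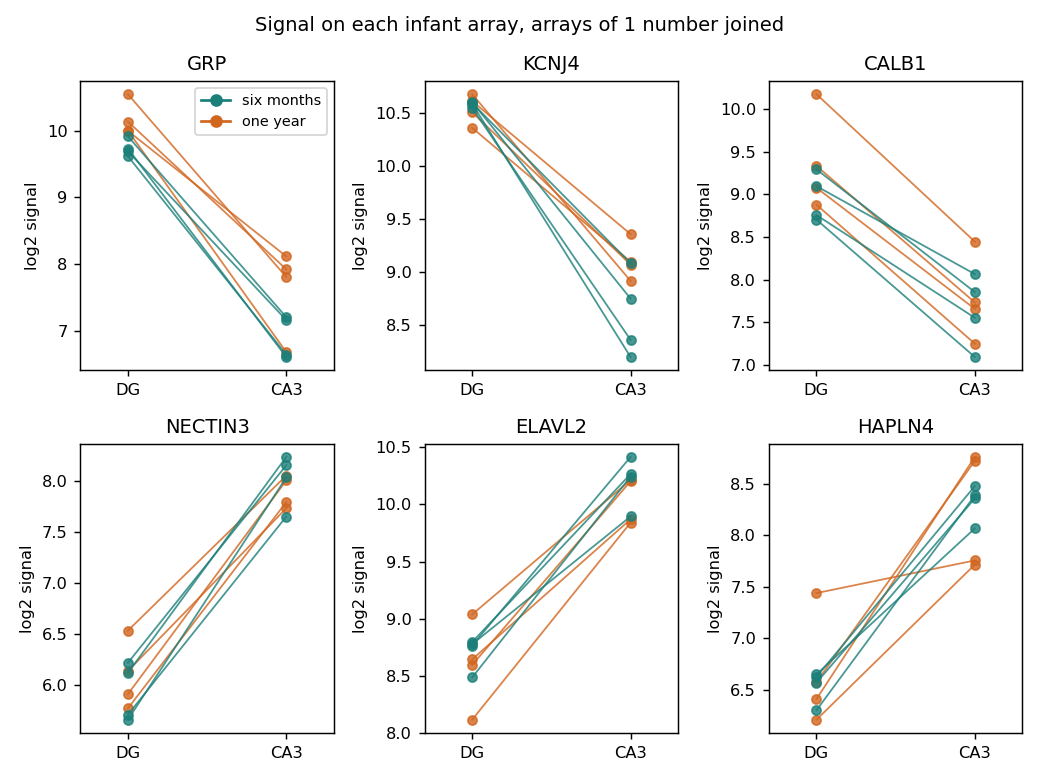
Log2 signal on each of the 16 infant arrays for 6 genes, with DG and CA3 of the same number joined by a line (green, 6 months; orange, 1 year). The arrays of the regions do not overlap in any of the 6, KCNJ4 is even in DG (10.36 to 10.68) and spread in CA3 (8.19 to 9.36), and for HAPLN4 number 6 is nearly flat (−0.32).

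Set beside the other infant regions, a difference between DG and CA3 could come from either side. Among the 12 leading genes higher in DG, DG had the highest mean of the 5 regions in 9, CA3 the lowest in 7, and both held in 4 (MALAT1, GARNL3, ADRA1A and SOX4). In KCNJ4, SERTAD4BP and SCN3A the highest mean was in EC and the lowest in CA3. Among the 12 higher in CA3, CA3 was highest in 7, DG lowest in 6, both held in 2 (NT5DC1 and SH3GL2), and in HAPLN4 neither held. CADPS2 and SLC8A1 were highest in CA1, at 8.04 and 9.36. Choosing genes by a large difference between DG and CA3 on these arrays favours such placements, and no share over all genes was counted. These placements use means over 8 arrays, were not tested, and rest for CA1 on arrays with a high GAPDH ratio. In EC the array of number 8 also had a high ratio (2.79), and it entered the means that place KCNJ4, SERTAD4BP, SCN3A and ELAVL2 highest there.

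Most called markers of the principal neurons lay on the side of the labelled region. Of 15 granule cell markers measured, 9 were higher in DG and 1 higher in CA3, against 12.2% and 10.6% of all genes tested and 20.1% and 18.1% of genes above the median level. For each list below, the share called in either direction and the median difference stand at the end of the paragraph, to be read against 22.7% of all genes, 38.2% of genes above the median level and a median of −0.01 over all genes. The share of granule cell markers called was 66.7%, with a median of 0.26. Calbindin, CALB1, the calcium buffer of granule cells, was at 8.70 to 10.18 in DG (median 9.09) and at 7.09 to 8.44 in CA3 (median 7.69), with no overlap and a difference of 1.46 ± 0.0622 (adjusted p = 1.34e-11). STXBP6 (0.96), SEMA5A (0.75) and LRRTM4 (0.67) were also higher in DG. LRRTM4, a postsynaptic organiser of excitatory synapses, was low on the array, at 4.80 to 5.80 in DG and 4.22 to 4.72 in CA3. NPNT went the other way, at 4.79 to 5.14 in DG and 5.28 to 5.66 in CA3 (−0.50 ± 0.0548). PROX1, the transcription factor that defines granule cells and is named here after its values were seen, did not pass the test: it was at 7.13 to 7.42 in DG and 7.01 to 7.33 in CA3 (0.12 ± 0.0598, adjusted p = 0.192). The mean of the 15 markers lay at 6.14 to 6.59 in DG and 5.66 to 6.08 in CA3, and was higher in DG in all 8 pairs.

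Of 19 CA3 pyramidal markers, 9 were higher in CA3 and 0 higher in DG, and the mean of the 19 lay at 7.04 to 7.26 in CA3 and 6.58 to 6.73 in DG without overlap. Beside NECTIN3, CPNE4, NEUROD6 and ELAVL2 these included NRIP3, at 8.43 to 9.17 in CA3 and 7.58 to 8.29 in DG (−1.05 ± 0.0653), and the potassium channel KCNQ5, at 6.53 to 6.98 in CA3 and 5.50 to 6.26 in DG (−0.94 ± 0.0798). Every other KCNQ5 probe set had the opposite sign. The other 10 markers, among them COCH, BOK and DKK3, differed by −0.12 to 0.12 and were not called. Of 5 CA2 markers, PCP4, a calmodulin regulator, was higher in DG (1.26 ± 0.0999), and RGS14 (−0.53 ± 0.0704) and AMIGO2 (−0.24 ± 0.0592) were higher in CA3. Of 5 hilar mossy cell markers, calretinin, CALB2 (0.52 ± 0.0685), and the peptide NMB (0.29 ± 0.0512) were higher in DG, and CALCRL, DRD2 and AJAP1 were not called. Calls in either direction made up 47.4% of CA3 markers (median −0.12), 60.0% of CA2 markers (−0.07) and 40.0% of mossy cell markers (0.08).

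**Figure D3:**
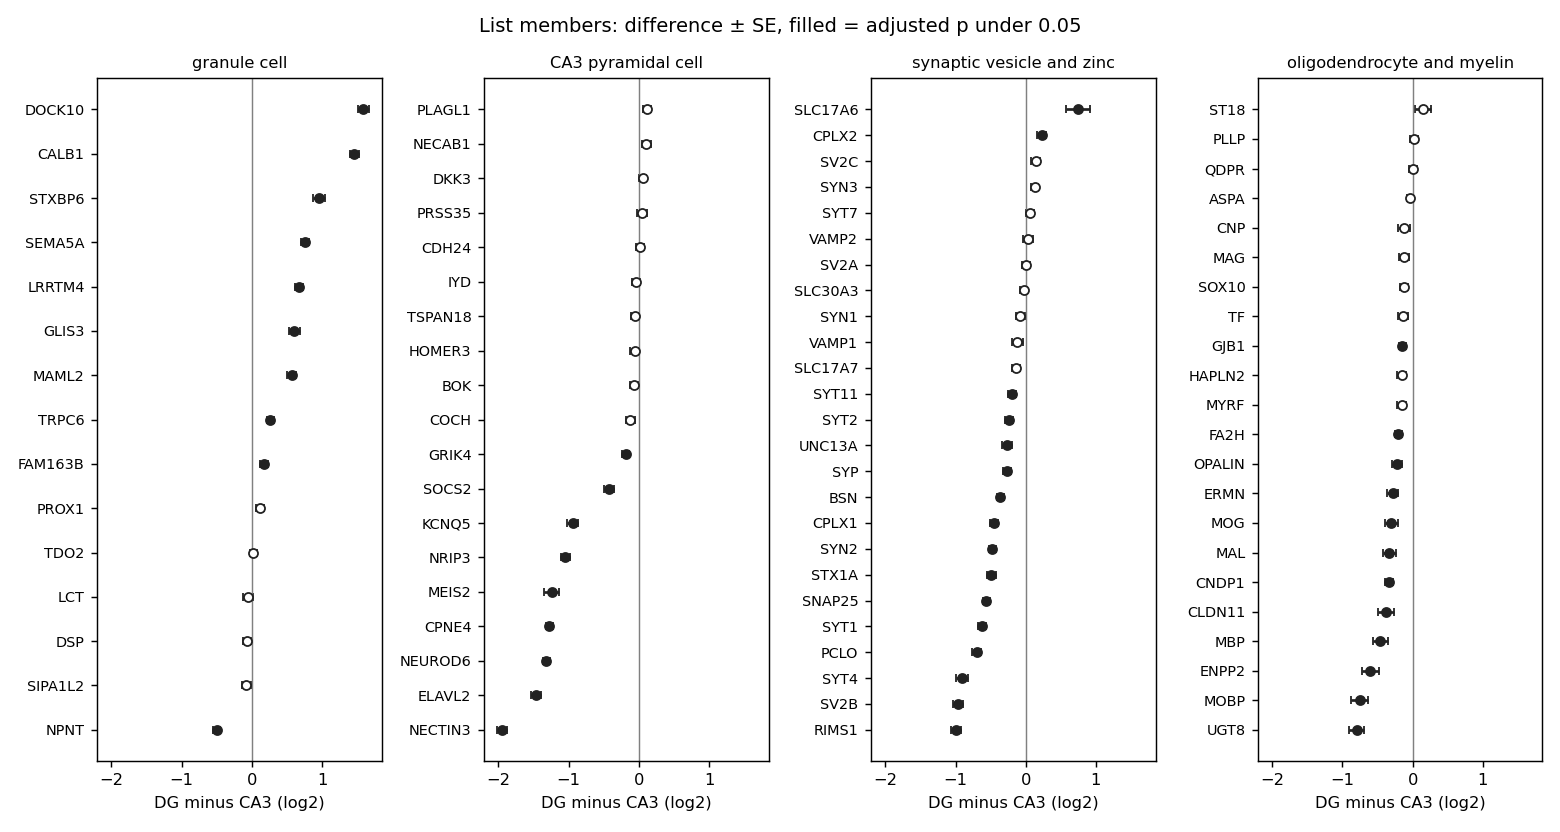
Difference DG minus CA3 (log2, ± SE of the limma fit, n = 8 pairs) of each measured member of 4 lists, filled where adjusted p was under 0.05. Most granule cell markers lie right of 0 and CA3 markers left of it, while PROX1 (0.12) and 10 CA3 markers stay near 0. Vesicle and myelin genes lie mostly left of 0, that is, higher in CA3.

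Interneuron markers were mixed, with 4 of 17 higher in DG and 5 higher in CA3. GAD1, which makes GABA, was at 9.78 to 10.22 in DG and 9.30 to 9.76 in CA3 without overlap (0.40 ± 0.0558). LAMP5 (0.99 ± 0.105) and the peptide NPY (0.44 ± 0.0584) were also higher in DG. Higher in CA3 were the cannabinoid receptor CNR1, at 8.32 to 8.74 against 7.09 to 8.09 in DG (−0.92 ± 0.0935), parvalbumin, PVALB (−0.60 ± 0.0719), and TAC1, the precursor of substance P (−0.53 ± 0.0800). Together the called genes were 52.9% of the list, whose median difference was −0.07.

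Astrocyte and myelin genes leaned to opposite sides. Of 18 astrocyte markers 12 were higher in DG and 1 higher in CA3. GFAP, the astrocyte intermediate filament, was at 10.46 to 11.81 in DG (median 11.52) and 10.13 to 11.18 in CA3 (median 10.54), so that the ranges overlapped, but it was higher in DG in all 8 pairs (0.87 ± 0.0729). S100B (0.69), the water channel AQP4 (0.57) and AGT (0.46) were higher in DG too. ALDOC, aldolase C, was the exception, at 11.32 to 12.03 in DG and 12.18 to 12.56 in CA3 (−0.51 ± 0.0572). The mean of the 18 lay at 9.08 to 9.33 in DG and 8.77 to 9.02 in CA3. Without number 5 the counts were 9 and 2. In either direction the test called 72.2% of the list, whose median difference was 0.22.

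Of 22 oligodendrocyte and myelin genes none was higher in DG and 12 were higher in CA3, with a median difference of −0.18. UGT8, which makes the main myelin lipids, was at 6.98 to 7.57 in CA3 and 5.73 to 7.23 in DG (−0.80 ± 0.103). MOBP (−0.76 ± 0.116), ENPP2 (−0.60 ± 0.125) and myelin basic protein, MBP (−0.46 ± 0.111), were also higher in CA3. MBP was lower in CA3 than in DG in 2 of 8 pairs. None of the 22 separated the arrays fully, which is near the share of 2.98% among all genes. The mean of the 22 lay at 6.90 to 7.30 in DG and 7.17 to 7.60 in CA3. Of 13 genes of oligodendrocyte precursors, VCAN was higher in DG (0.90 ± 0.0892) and PDGFRA (−0.48 ± 0.0886) and LHFPL3 (−0.25 ± 0.0718) higher in CA3. The share called was 54.5% of myelin genes and 23.1% of precursor genes, the latter (median −0.08) near that of all genes.

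Of 14 microglial markers TYROBP was higher in DG (0.20) and GPR34 (−0.31) and P2RY12 (−0.24) in CA3, a share of 21.4% against 22.7% of all genes. The split of 1 in DG and 2 in CA3 was 2 to 1 as deposited and centred. Of 15 endothelial and mural markers 5 were higher in DG and 2 in CA3, by −0.26 to 0.39, and as deposited or centred the split was 6 to 1 and 7 to 1. Of 13 collagen and fibroblast genes 6 were higher in DG and 1 in CA3, and 4 and 1 without number 5. COL1A2, at 5.79 to 7.73 in DG and 5.46 to 5.96 in CA3 (0.53 ± 0.126), and COL3A1 (0.46 ± 0.0976) were highest in DG in number 10, the DG array with the highest mean of this list (6.59 against 5.95 to 6.20). Transthyretin, TTR, of the choroid plexus, spread from 6.04 to 9.25 in DG and from 5.97 to 8.85 in CA3 with no difference called (−0.15 ± 0.265). The part of these glial, vascular and fibroblast differences in the results on other genes was not tested. Calls in either direction made up 46.7% of endothelial and mural genes (median 0.07) and 53.8% of collagen and fibroblast genes (0.11).

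Of 13 genes of neural stem cells and radial glia, 8 were higher in DG and 0 in CA3. Vimentin, VIM, an intermediate filament of radial glia and astrocytes, was at 8.57 to 10.36 in DG (median 9.48) and 7.61 to 8.63 in CA3 (median 8.11). It was higher in DG in all 8 pairs (1.40 ± 0.103, adjusted p = 1.31e-08), with 1 DG array inside the CA3 range, and its other probe set had the opposite sign. Tenascin C, TNC, a matrix protein of the stem cell niche, was at 8.03 to 8.65 in DG and 6.84 to 7.58 in CA3 (1.16 ± 0.0725), and the lipid-binding protein FABP7 at 9.86 to 10.37 and 9.06 to 9.50 (0.80 ± 0.0646), both without overlap. The transcription regulators ID4 (0.63), PAX6 (0.52) and HES5 (0.26) were also higher in DG. VIM, FABP7, ID4 and the HES genes are made by astrocytes too, whose markers were higher in the same arrays, and whether stem cells or astrocytes carried them cannot be told apart here. Together the called genes were 61.5% of the list, whose median difference was 0.26.

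Of 23 genes of immature neurons and neurite outgrowth, 13 were higher in DG and 5 higher in CA3. The SoxC factors SOX4, at 9.04 to 9.84 in DG and 7.59 to 8.25 in CA3 (1.56), and SOX11, at 6.57 to 8.05 and 5.78 to 6.55 (1.12 ± 0.101), act in newly formed neurons. Mean SOX4 levels in Sub (9.20) and EC (9.11) were near that of DG (9.51), with CA1 at 8.48 and CA3 at 7.95. BCL11B, a transcription factor of granule cell differentiation, was at 7.95 to 8.32 in DG and 6.53 to 7.18 in CA3 (1.23 ± 0.0681). The actin-binding thymosin TMSB10 was also higher in DG (0.94 ± 0.0669). On the other side, STMN2, at 12.69 to 13.10 in CA3 and 11.83 to 12.39 in DG (−0.75 ± 0.0549), and MAP1B (−0.60 ± 0.0541), both microtubule regulators of growing axons, were higher in CA3, so the list did not move as a whole. Dividing-cell genes showed little: of 24, PCNA (0.45), MCM2 (0.35) and CCNA2 (0.23) were higher in DG and CCND2 (−0.51) and CCND1 (−0.30) in CA3, together 20.8%. MKI67, named after its values were seen, lay at 5.20 to 5.41 in DG and 5.18 to 5.41 in CA3. The mean of the 24 lay at 5.44 to 5.58 in DG and 5.44 to 5.54 in CA3, below the median of gene means (5.98). Low signal and a lack of difference therefore cannot be told apart for this list. In either direction the test called 78.3% of immature neuron genes (median 0.17), and the 20.8% among dividing-cell genes (median −0.01) is below the share of all genes.

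Patterning transcription factors split by region. Of 24 measured, 11 were higher in DG and 4 in CA3 (2 without number 5). EMX2, needed for DG to form, was at 7.99 to 8.50 in DG and 7.27 to 7.71 in CA3 (0.79 ± 0.0496, adjusted p = 1.93e-09). ZFPM2 (1.02 ± 0.0758), BHLHE22 (0.92 ± 0.0599), NFIA (0.64 ± 0.0481) and ZBTB20, which specifies hippocampal neurons (0.57 ± 0.0573), were also higher in DG. MEIS2 had the largest difference of the list and was higher in CA3, at 6.37 to 7.20 against 4.72 to 6.18 (−1.24 ± 0.110). Of 25 Wnt and BMP genes, 5 were higher in DG and 6 in CA3 (4 and 3 in CA3 as deposited and centred). Those in DG included BMP2 (0.96 ± 0.0862), its antagonist noggin, NOG (0.89 ± 0.0791), and AXIN2, a target of Wnt signalling (0.67 ± 0.0565), none of which overlapped between regions. The ligands WNT5A (−0.58) and WNT2 (−0.28) were higher in CA3 and WNT4 in DG (0.26). The share called was 62.5% of patterning factors (median 0.12) and 44.0% of Wnt and BMP genes (−0.02).

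Guidance and adhesion genes differed in both directions, by family member. The transmembrane protein FLRT3, a ligand of latrophilin and Unc5 receptors, was at 10.26 to 10.83 in DG (median 10.40) and 8.79 to 9.36 in CA3 (median 9.21), with no overlap and a difference of 1.29 ± 0.0614 (adjusted p = 5.25e-11). Its relative FLRT2 was higher in CA3 (−0.34 ± 0.0543). Both belong to the list of 17 netrin, Slit and Robo genes and relatives, of which 7 were higher in CA3 and 3 in DG, and 7 were not called. The receptor ROBO1 was at 6.59 to 7.13 in CA3 and 6.02 to 6.74 in DG (−0.64 ± 0.0645), its ligands SLIT2 and SLIT1 differed by −0.51 and −0.39, and the netrin receptor UNC5C by −0.50. The share of the netrin, Slit and Robo list called was 58.8%, with a median of −0.07.

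Among 17 Eph receptors and ephrins, 4 were higher in DG and 5 in CA3 (6 and 5 after centring). The ligand EFNB3 was at 10.17 to 10.46 in DG and 9.52 to 9.82 in CA3 without overlap (0.71 ± 0.0572), and EFNA1 differed by 0.47. Every other EFNB3 probe set had the opposite sign. Of the receptors, EPHA7 was higher in DG (0.88 ± 0.0942), and EPHA6 (−0.81 ± 0.0838), EPHA4 (−0.67 ± 0.0579) and EPHB6 (−0.67 ± 0.0591) in CA3. Of 23 semaphorins, plexins and neuropilins, 7 were higher in DG, SEMA6D (0.43) and PLXNA2 (0.32) among them, and 4 in CA3, with PLXNC1 at −0.52 and NRP1 at −0.51. Of 14 cadherins 4 were higher in DG, CDH9 (0.40), CDH22 (0.30), CDH8 (0.37) and CDH10 (0.22), and 3 in CA3. CDH12 (−0.70) had the largest difference and was higher in CA3. Calls in either direction made up 52.9% of Eph genes (median 0.02), 47.8% of the semaphorin list (0.07) and 50.0% of cadherins (−0.01).

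Among glutamate receptors, the auxiliary subunits differed most. CNIH3, which slows AMPA receptor channels, was at 7.47 to 8.01 in DG (median 7.67) and 6.31 to 7.01 in CA3 (median 6.61), a difference of 1.02 ± 0.0712 (adjusted p = 6.93e-09). CACNG3 (0.45) was also higher in DG, and CACNG8 (−0.58 ± 0.0565), SHISA6 (−0.51 ± 0.0557) and CACNG2 (−0.27) in CA3. Of the 12 genes of the AMPA list 3 were higher in DG and 4 in CA3. The pore subunits GRIA1 (−0.10) and GRIA2 (−0.20), named after their values were seen, were not called. In the kainate family 2 of 7 genes were higher in DG and 3 in CA3. NETO1, an auxiliary subunit of receptors at mossy fibre synapses, was at 8.13 to 8.66 in CA3 and 6.96 to 7.67 in DG (−1.06 ± 0.0482, adjusted p = 3.47e-11). GRIK4, which mossy fibre synapses on CA3 use, was higher in CA3 by a small amount (−0.19 ± 0.0491), and GRIK2 (0.43) and GRIK3 (0.42) were higher in DG. Of 7 NMDA receptor genes GRIN3A (−0.38) and GRIN2A (−0.16) were higher in CA3 and GRIN2C in DG (0.16, not called without number 5). Of 9 metabotropic receptor and Homer genes, GRM3 (0.39) and GRM2 (0.25) were higher in DG and HOMER1 (−0.31), HOMER2 (−0.28) and GRM7 (−0.27) in CA3. Together the called genes were 58.3% of the AMPA list (median −0.14), 42.9% of the NMDA list (−0.05), 71.4% of the kainate list (−0.07) and 55.6% of the metabotropic list (−0.07).

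Of 11 GABA receptor genes 2 were higher in DG and 5 in CA3 (4 and 3 as deposited and centred). The delta subunit GABRD, part of extrasynaptic receptors of granule cells, was at 6.33 to 6.79 in DG and 6.00 to 6.23 in CA3 without overlap (0.49 ± 0.0583), and GABRA4, which pairs with it, differed by 0.42 ± 0.0680. GABRG1 (−0.62 ± 0.0971) had the largest difference on the CA3 side. In either direction the test called 63.6% of the list, whose median difference was −0.02.

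Of 25 synaptic vesicle and zinc genes 14 were higher in CA3 and 2 in DG, with a median difference of −0.24, and the mean of the 25 lay at 8.90 to 9.15 in CA3 and 8.62 to 8.83 in DG without overlap. RIMS1, a scaffold of the active zone, was at 9.86 to 10.33 in CA3 and 8.99 to 9.37 in DG (−0.99 ± 0.0679). The vesicle proteins SV2B (−0.96 ± 0.0694), SYT4 (−0.91 ± 0.0859), SYT1 (−0.62 ± 0.0544) and SNAP25 (−0.56 ± 0.0542), and the scaffold PCLO (−0.70 ± 0.0592), were lower in DG in all 8 pairs. For RIMS1, PCLO and SNAP25 1 of the 2 other probe sets had the opposite sign. Named after their values were seen, the zinc transporter of mossy fibre vesicles SLC30A3 did not differ beyond its error (−0.03 ± 0.0508), and the vesicular glutamate transporter SLC17A6 was higher in DG (0.75 ± 0.173), though in 6 of 8 pairs. The share called was 64.0%.

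**Figure D4:**
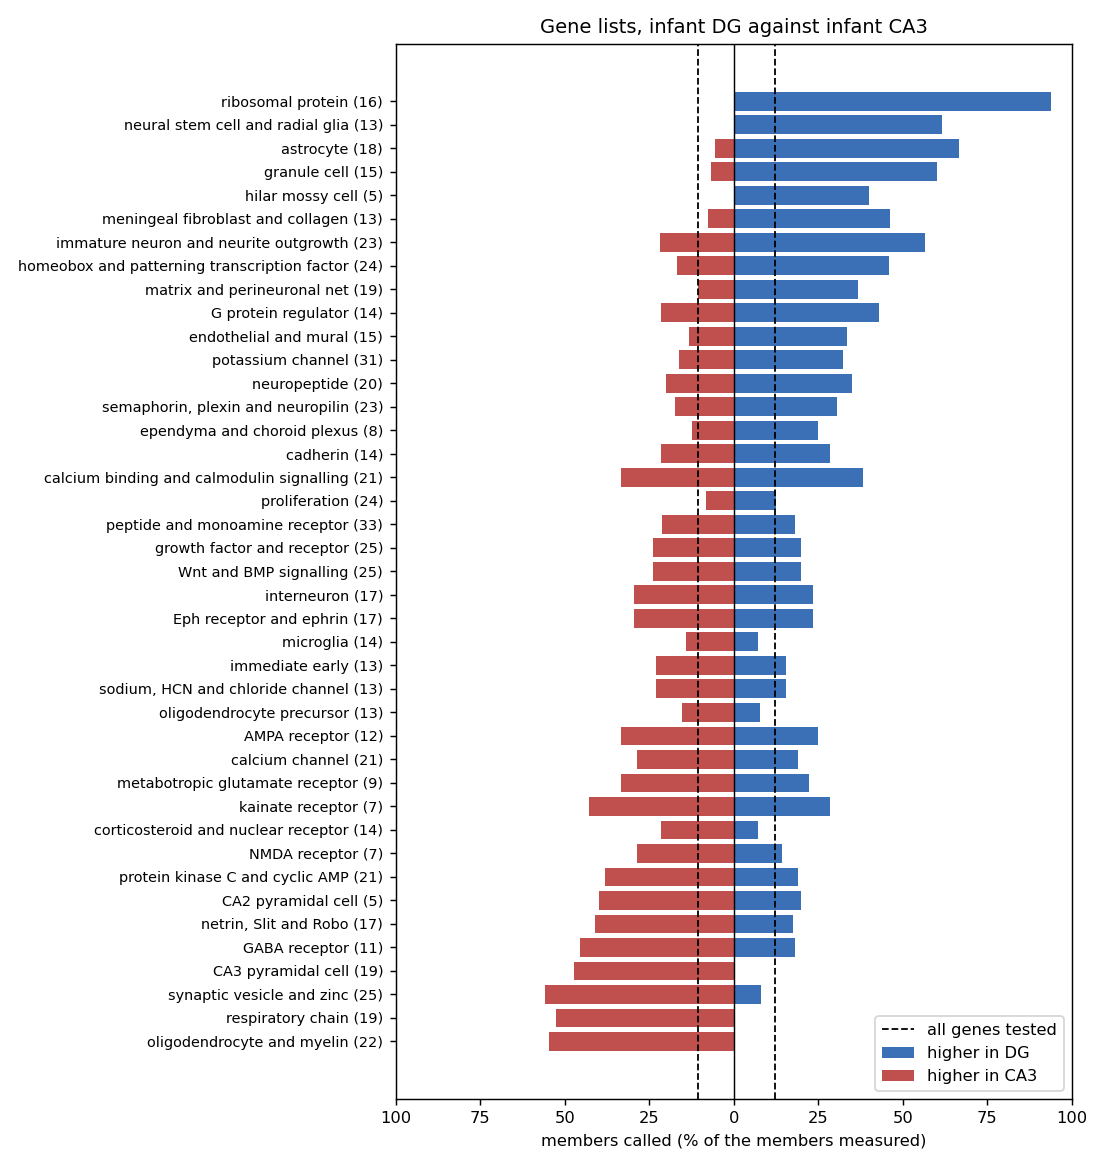
Share of the measured members of each of 41 gene lists (number measured in brackets) called higher in DG (blue, right) or in CA3 (red, left), with the shares over all genes tested as dashed lines (12.2% and 10.6%). Ribosomal, stem cell, astrocyte and granule cell lists lean to DG, and myelin, respiratory chain, vesicle and CA3 pyramidal lists to CA3.

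Neuropeptides were higher in DG in 7 of 20 and in CA3 in 4. After GRP came corticotropin-releasing hormone, CRH, at 6.61 to 7.30 in DG and 5.99 to 6.55 in CA3 (0.67 ± 0.0676), and prodynorphin, PDYN, the opioid peptide of mossy fibres, at 7.07 to 7.66 and 6.35 to 7.04 (0.57 ± 0.0730). Neither overlapped between regions, but every other CRH probe set had the opposite sign. Cholecystokinin, CCK, was higher in CA3 (−0.55 ± 0.0618). Of 33 peptide, monoamine, acetylcholine and cannabinoid receptors, 6 were higher in DG and 7 in CA3 (6 and 5 after centring). NPY1R, the Y1 receptor of neuropeptide Y, was at 6.08 to 7.71 in DG (median 6.56) and 4.51 to 6.15 in CA3 (median 5.17). These ranges overlapped slightly, while the 8 differences within a number lay close together, at 1.34 to 1.77 (mean 1.50 ± 0.0549, adjusted p = 3.67e-12). The PACAP receptor ADCYAP1R1 was higher in DG (0.70 ± 0.0620). On the CA3 side, the muscarinic receptor CHRM3 was at 10.04 to 10.45 against 8.62 to 9.38 in DG (−1.18 ± 0.0707), and the serotonin receptor HTR2C at 5.67 to 6.66 against 4.40 to 5.58 (−1.13 ± 0.121). Every other HTR2C probe set had the opposite sign. Calls in either direction made up 55.0% of neuropeptides (median 0.01). For the receptors it was 39.4% (median −0.03), about that of genes above the median level, so the count says nothing particular about them.

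Ion channels and calcium sensors differed in both directions within families. Of 31 potassium channel genes 10 were higher in DG and 5 in CA3. KCNC4, at 7.07 to 7.53 in DG and 6.14 to 6.60 in CA3 (0.87 ± 0.0579), KCNIP4 (0.66 ± 0.0636) and KCNF1 (0.55 ± 0.0595) were higher in DG, and KCNQ5 (−0.94), the beta subunit KCNAB1 (−0.75 ± 0.0683) and KCNA1 (−0.69 ± 0.0598) in CA3. Of 13 sodium, HCN and chloride channel genes, SCN3A and the beta subunit SCN2B (0.44 ± 0.0528) were higher in DG, and SCN3B (−0.62 ± 0.0685), SCN2A (−0.27) and SCN8A (−0.22) in CA3. Of 21 calcium channel and release genes 4 were higher in DG and 6 in CA3: the ryanodine receptor RYR1 was higher in DG (0.48) and RYR3 in CA3 (−0.42), as were CACNA2D3 (−0.57), CACNA1A (−0.42) and ITPR1 (−0.30). Together the called genes were 48.4% of potassium channel genes (median 0.02), 47.6% of calcium channel genes (−0.03) and 38.5% of sodium, HCN and chloride channel genes (−0.06), the last about that of genes above the median level.

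Of 21 calcium binding and calmodulin genes, 8 were higher in DG and 7 in CA3. The arrays were fully separated in 7 of the 21, against 2.98% of all genes. HPCAL1 was at 8.87 to 9.67 in DG (median 9.48) and 7.31 to 8.34 in CA3 (median 7.86), a difference of 1.51 ± 0.0798 (adjusted p = 1.88e-10). The kinase CAMK2D was at 9.31 to 10.07 in DG and 8.05 to 8.81 in CA3 (1.20 ± 0.0642), with all 4 other probe sets of the same sign. Relatives of HPCAL1 went the other way: VSNL1 was at 12.08 to 12.54 in CA3 and 11.15 to 11.70 in DG (−0.89 ± 0.0586), and NCALD at 9.31 to 9.60 and 8.41 to 8.79 (−0.81 ± 0.0538). In either direction the test called 71.4% of the list, whose median difference was 0.05.

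In intracellular signalling, adenylyl cyclase 1, ADCY1, which makes cyclic AMP in response to calcium, was at 11.20 to 11.78 in DG and 10.38 to 10.96 in CA3 (0.78 ± 0.0536). It was 1 of 4 genes higher in DG among 21 of the protein kinase C and cyclic AMP list, and 8 were higher in CA3. Those included the kinases PRKCA, at 9.22 to 9.60 in CA3 and 8.51 to 8.89 in DG (−0.77 ± 0.0497), and PRKCE (−0.61 ± 0.0578), and the phosphodiesterases PDE4B (−0.51), PDE2A (−0.42) and PDE4D (−0.38), which break down cyclic nucleotides. Of 14 regulators of G protein signalling 6 were higher in DG, all by 0.31 or less, and 3 in CA3 (1 after centring), led by RGS14. Of 13 immediate early genes JUN (0.73 ± 0.0637) and FOSL2 (0.55) were higher in DG, and EGR1 (−0.44), ARC (−0.27) and FOS (−0.24) in CA3. The share called was 57.1% of the kinase and cyclic AMP list (median −0.08), 64.3% of the G protein regulators (0.06) and 38.5% of the immediate early genes (−0.07), the last about that of genes above the median level.

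Of 14 steroid, thyroid and orphan nuclear receptors, the orphan receptors NR4A2, at 8.61 to 9.28 in CA3 and 7.45 to 8.40 in DG (−1.01 ± 0.0770), and NR4A3 (−0.76 ± 0.0616), and the thyroid hormone receptor THRB (−0.52 ± 0.0667) were higher in CA3. The glucocorticoid receptor NR3C1 was higher in DG (0.28 ± 0.0774), and the mineralocorticoid receptor NR3C2 was not called (−0.16 ± 0.0593, adjusted p = 0.0587). Of 25 growth factors and receptors 5 were higher in DG and 6 in CA3 (8 and 5 after centring). IGFBP5, which binds insulin-like growth factors, was at 7.94 to 8.70 in DG and 6.56 to 7.43 in CA3 (1.29 ± 0.0590), with 3 of 5 other probe sets of the same sign, and the neurotrophin-3 receptor NTRK3 differed by 0.48. NRG3 (−0.59), FGF12 (−0.52) and FGF13 (−0.43) were higher in CA3. Of 19 matrix genes 7 were higher in DG, with the proteoglycans VCAN (0.90), NCAN (0.68 ± 0.0594) and BCAN (0.44), and 2 in CA3, HAPLN4 and SPOCK1 (−0.53). Calls in either direction made up 28.6% of nuclear receptors (median −0.06), a smaller share than among genes above the median level, 44.0% of growth factors and receptors (−0.01) and 47.4% of matrix genes (0.12).

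Genes of the ribosome and of respiration leaned opposite ways by small amounts. Of 16 ribosomal protein genes measured 15 were higher in DG and 0 in CA3, with a median of 0.30 and a range of 0.14 to 0.58. RPS6 was at 12.11 to 12.32 in DG and 11.65 to 11.89 in CA3 (0.43 ± 0.0481), and RPS3 at 12.20 to 12.49 and 11.84 to 11.99 (0.41 ± 0.0526), both without overlap. Many ribosomal protein genes have near-identical copies, which these probe sets may not separate. Of 19 respiratory chain genes 10 were higher in CA3 and 0 in DG, with a median of −0.15, and 6 without number 5. SDHA was at 8.76 to 9.05 in CA3 and 8.19 to 8.66 in DG (−0.42 ± 0.0535), and ATP5F1B at 12.50 to 12.78 and 12.04 to 12.41 (−0.35 ± 0.0528). For some genes named above every other probe set of the symbol had the opposite sign: KCNQ5, VIM, SLIT1, EFNB3, GRIK3, CRH, HTR2C, SCN2A, CDH22, CCNA2 and CCND1. Both leanings, ribosomal and respiratory, kept their direction with the values as deposited and with arrays centred on their median. Together the called genes were 93.8% of ribosomal and 52.6% of respiratory chain genes.

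At 6 months 3215 genes (16.3%) differed between DG and CA3, 1698 higher in DG (8.59%) and 1517 in CA3 (7.67%). At 1 year the count was 2727 (13.8%), with 1476 (7.46%) and 1251 (6.33%). Without the pairing these counts were 1736 and 1302. The test of the difference between the ages called 43 genes (0.217%), 19 with DG minus CA3 higher at 1 year (0.0961%) and 24 lower (0.121%). That count was fragile. It ran from 10 to 84 when 1 number was left out and changed by over 1.5 times whichever number it was. Without the pairing by number it was 0. In that unpaired fit limma gave 1163 of 19,775 genes an unadjusted p under 0.05. That count cannot be read against a share of 0.05. The unpaired fit leaves out a pairing whose arrays were correlated (mean 0.348), so without any difference another share could pass.

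In 5 of the 8 genes named for the age difference (MARCKSL1, ST8SIA2, NDRG4, RPL27A and ARGLU1) the DG arrays of the ages did not overlap. Choosing genes for a large change on these same arrays favours such a gap, and the share over all genes was not counted. The GAPDH ratio of the DG arrays also separated the ages, at 0.998 to 1.07 at 6 months and 1.13 to 1.43 at 1 year. In CA3 it overlapped, at 0.918 to 1.30 and 1.02 to 1.28. Age and RNA quality therefore cannot be told apart in the DG changes below. MARCKSL1, a regulator of actin in growing neurites, was at 10.42 to 10.79 on the 4 DG arrays of 6 months and 9.15 to 9.62 on those of 1 year, without overlap, and at 9.45 to 9.66 and 9.06 to 9.91 in CA3. Its difference of DG minus CA3 was 1.00 at 6 months and 0.03 at 1 year (change −0.97 ± 0.142, adjusted p = 0.00944). ST8SIA2, which adds polysialic acid to NCAM in young neurons, was at 6.45 to 6.91 in DG at 6 months and 5.53 to 5.78 at 1 year, while CA3 stayed at 4.92 to 5.49 (difference 1.47 and 0.53, change −0.93 ± 0.153), though its other probe set had the opposite sign in the comparison of regions. In newborns the ST8SIA2 difference was 1.83. NDRG4 was at 8.89 to 9.03 in DG at 6 months and 8.06 to 8.59 at 1 year (change −0.99 ± 0.113, adjusted p = 0.00171), and CD9, a tetraspanin, at 6.58 to 8.08 and 6.06 to 6.64 (change −1.34 ± 0.199). The other 2 CD9 probe sets were compared only between regions, where CD9 was not called (0.02), so their sign says nothing about this change. With the mean of all CD9 probe sets the change was not called.

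Going up in DG, RPL27A was at 7.38 to 7.78 at 6 months and 8.52 to 8.90 at 1 year, with CA3 at 7.46 to 7.97 throughout (change 0.96 ± 0.132, adjusted p = 0.00944). BLOC1S1 (1.01 ± 0.192), ARGLU1 (0.98 ± 0.166) and SNRPD2 (0.93 ± 0.164) changed in the same direction. Of the list members, chosen after their values were seen, the active zone scaffold BSN (−0.03 at 6 months, −0.68 at 1 year), the vesicle protein SV2A (0.29 and −0.29), the glutamate transporter SLC17A7 (0.15 and −0.43) and the GABA-B receptor subunit GABBR1 (0.58 and −0.27) passed this test, all with DG lower against CA3 at 1 year, as did FOLR1 (−0.14 and 0.51) in the other direction. For SOX4 the difference was 1.85 at 6 months and 1.28 at 1 year, which did not pass (adjusted p = 0.0607).

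Beside newborns, most leading differences were already present at birth. In the fit that includes 4 newborn pairs, 1546 genes (7.82%) were called in newborns, 828 higher in DG (4.19%) and 718 in CA3 (3.63%), and 22 of the 24 leading infant genes passed there, all but SERTAD4BP and ELAVL2. The difference itself differed between infants and newborns in 81 genes (0.41%), 42 higher in infants (0.212%) and 39 lower (0.197%). This count ran from 27 to 195 when 1 number was left out, moved by over 1.5 times for every number but 13, and was 38 without the pairing.

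PCP4 turned over. In newborns it was at 8.12 to 8.86 in DG and 8.83 to 9.43 in CA3, a difference of −0.72, and in infants at 8.68 to 9.34 in DG and 7.44 to 8.13 in CA3, a difference of 1.26 (change 1.97 ± 0.210, adjusted p = 0.00071). The CA3 arrays of the ages did not overlap, while those of DG did. PAK6, a protein kinase, had the same course: newborn CA3 lay at 8.64 to 8.76 and infant CA3 at 6.86 to 7.60, DG stayed at 7.53 to 8.54, and the difference went from −0.37 to 1.01 (change 1.38 ± 0.128, adjusted p = 0.000175). PCDH18, a protocadherin, went from −0.25 to 1.08 and SERTAD4BP from 0.16 to 1.58.

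BDNF, the neurotrophin, was at 7.26 to 8.09 in newborn CA3 and 8.62 to 9.37 in infant CA3, with DG at 8.54 to 9.49 throughout, so a difference of 1.24 became −0.03 (change −1.27 ± 0.226, adjusted p = 0.0281). The other BDNF probe set was compared only for the infant difference, which was near 0, so its sign says nothing about this change. With the mean of all BDNF probe sets the change was not called. RSPO3, a secreted enhancer of Wnt signalling, was at 6.79 to 6.96 in newborn CA3 and 7.15 to 8.16 in infant CA3, and its difference went from 0.45 to −0.81 (change −1.26 ± 0.116, adjusted p = 0.000175). Infant DG was also lower in RSPO3, at 6.22 to 7.26 against 7.17 to 7.62 in newborns. PTX3, a pentraxin, was at 5.87 to 6.92 in newborn DG and 4.38 to 5.74 in infant DG (difference 1.96 and 0.70). SLF1 went from 0.98 to −0.23.

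Among the leading genes, KCNJ4 widened from 0.59 in newborns to 1.71 in infants (change 1.12 ± 0.189, adjusted p = 0.0198), NECTIN3 from −1.13 to −1.95 (−0.82 ± 0.150, adjusted p = 0.0295) and NEUROD6 from −0.64 to −1.32 (−0.68 ± 0.109, adjusted p = 0.0158). GRP stood at 2.58 in newborns and 2.69 in infants, and CPNE4 at −1.28 and −1.27. HAPLN4 was at −3.03 in newborns, with newborn CA3 at 9.02 to 9.76, and −1.69 in infants, a change that did not pass (adjusted p = 0.0583). RGS14 narrowed from −1.58 to −0.53 (change 1.06, adjusted p = 0.0152).

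**Figure D5:**
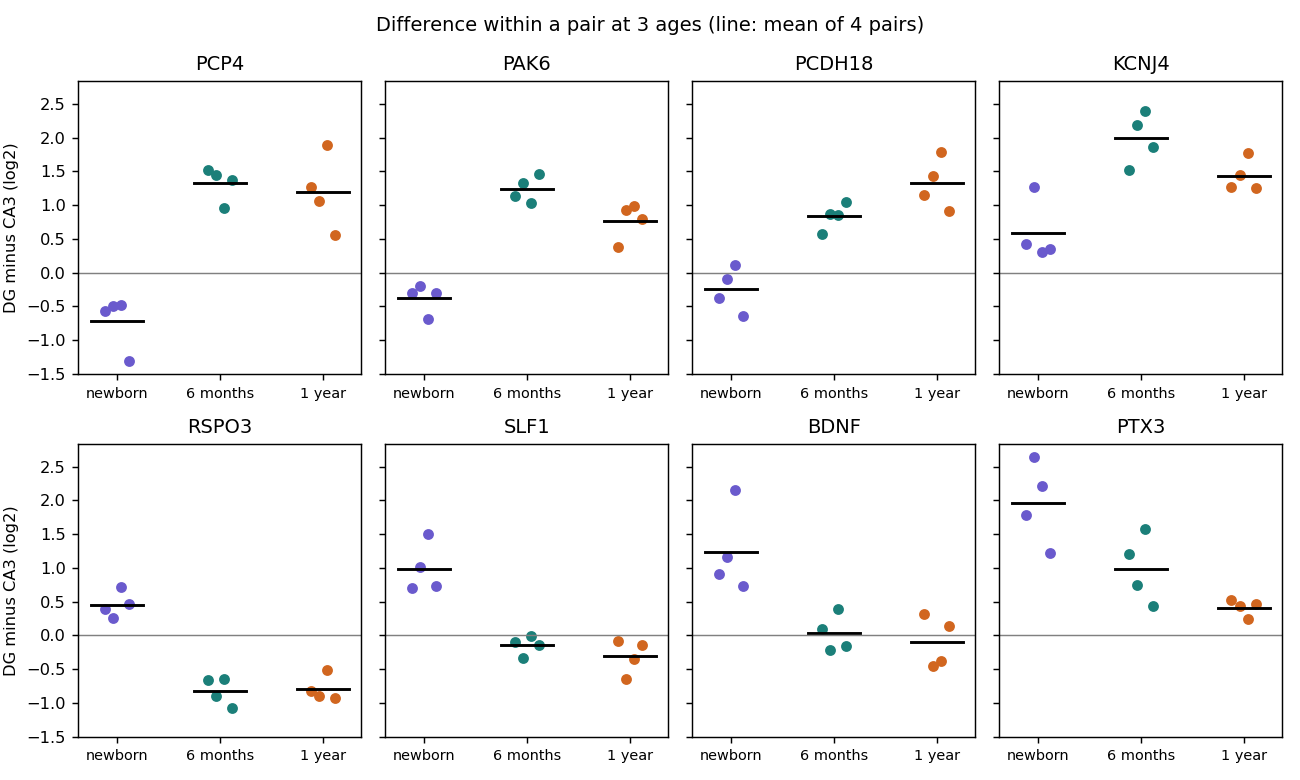
DG minus CA3 (log2 signal) within each pair at birth (purple), 6 months (green) and 1 year (orange) for 8 genes, with the mean of 4 pairs as a line. The means of PCP4, PAK6 and RSPO3 lie on opposite sides of 0 in newborns and infants, and KCNJ4 goes from 0.59 to 1.71.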

How the data were processed

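The authors deposited log2 signals for 54,675 probe sets on each of 80 arrays, and these were the starting values. Per the labels' protocols, RNA was extracted with Trizol and biotin-labelled in 2 amplification cycles. The summary algorithm, any scaling and the build behind the probes have no description in the sources used here, and depth has no meaning for arrays: their number limits the precision. Probes designed on human sequence were hybridised with monkey RNA, and mismatched probes may give a low signal. Quartiles of the arrays spread over 0.120, 0.106 and 0.120, above a limit of 0.05, so the 80 arrays were quantile normalized together with limma 3.58.1 (R 4.3.3).

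Control probe sets numbered 62; in the platform annotation 41,091 others carried 1 gene symbol, 1801 had several and 11,721 had none. The probe set with the highest mean over the 80 arrays stood for each of 19,775 symbols, with no filter on low signal. Signals of different probe sets were not compared.

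The 8 differences within a number were fitted with limma (lmFit, eBayes) with age as a factor, and 12 differences with newborns added for the comparison of infants with newborns. The series text gives 16 monkeys with each region on its own array, and there are 16 numbers, so a number was taken as an animal; the labels do not state this. The deviations of same-numbered DG and CA3 arrays from their groups had a mean correlation of 0.348 (0.043 to 0.618, over 0.1 in 7 of 8 pairs), against −0.117 for other numbers of the same age. No arrays were identical.

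Genes named are the 12 with the largest difference in each direction among called genes with 1 sign in 8 pairs and a mean above the median of genes, up to 4 in each direction for age comparisons, and, per list, up to 6 of the members with the lowest p. Loci without a characterised gene were left out, and other genes are marked as chosen after their values were seen. The genes and the 41 lists were chosen with earlier results of these data known, so list counts are descriptions, to be read against the shares of all genes. No set test was run. Of the 41 lists each is plotted.

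The fits were tested before use on simulated data with 200 of 19,775 genes changed. A change of 0.5 log2 was recovered in 95% of them for infant DG minus CA3. It was recovered in only 29% for 1 year against 6 months and 46% for infants against newborns. At 1 log2 these shares were 100%, 96.5% and 94%, with 11, 19 and 9 false calls. The simulated noise was drawn separately for each gene, so variation that genes share across an array was left out. Recovery and false calls on the real arrays can therefore be worse. Alternatives tried were the scaling between arrays, a filter on low genes, the mean of a symbol's probe sets, a mean-variance trend, no age term, the GAPDH ratio as a covariate, no pairing, and leaving out each number. Figures were drawn with matplotlib 3.10.9.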

Additional observations from a re-analysis of the deposited data

Results flagged for a closer look

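Among 104 groups of 4 arrays, examined for the leading genes and for the GAPDH and actin ratios, 4 held an array set apart from the others. Chance gives such a gap in about 1 in 20 groups, so this number is no more than chance gives. In DG at 1 year, number 5 had SERTAD4BP at 7.082 against 6.81 to 6.838 in the other 3, and ALDH1L1 at 8.592 against 9.677 to 9.837. In DG at 6 months, number 12 had ELAVL2 at 8.485 against 8.765 to 8.795, and NEFH at 7.111 against 6.68 to 6.749.

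The difference of DG minus CA3 itself differed between 6 months and 1 year in 43 genes by the limma test of that difference. Of those named, BLOC1S1 (1.01), ARGLU1 (0.98), RPL27A (0.96) and SNRPD2 (0.93) were higher at 1 year, and CD9 (−1.34), NDRG4 (−0.99), MARCKSL1 (−0.97) and ST8SIA2 (−0.93) lower. Between infants and newborns it differed in 81 genes. Those named were PCP4 (1.97), SERTAD4BP (1.42), PAK6 (1.38) and PCDH18 (1.33), higher in infants, and BDNF (−1.27), PTX3 (−1.26), RSPO3 (−1.26) and SLF1 (−1.21), lower in infants.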

How the results depend on the processing

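The count of 4498 genes called between infant DG and CA3 stayed within 1.5 times its size in most alternatives. These were values as deposited, arrays centred, quantile normalization of only the 16 arrays and a filter on low genes. The others were the mean of probe sets, a mean-variance trend, the GAPDH covariate and no age term. After centring, the side with more calls changed in the microglia, Wnt and BMP, Eph, peptide and monoamine receptor, and growth factor lists. No named gene that was rechecked reversed the sign of its difference in any alternative run. None of the 24 leading genes lost its call in any of them. Of 223 infant differences of named genes, 36 lost it without the replicate block (NPY, TAC1, PDGFRA, LHFPL3, P2RY12, TYROBP, GPR34, COL1A2, COL3A1, WNT4, SEMA6D, CDH10, GRIN2A, GRIN3A, HOMER1, NR3C1 and SCN2A among those in the text) and 26 with the mean of probe sets (MBP, TYROBP, COL3A1, CCND1, GRIN2A, GRIN2C, GRIK2, NR3C1, SCN2A, CACNA1A and PDE4D among them). Of the 8 genes named for the age difference, 8 lost it without the block, 5 with the mean of probe sets (BLOC1S1, ARGLU1, SNRPD2, CD9 and ST8SIA2) and 4 with the GAPDH covariate (BLOC1S1, ARGLU1, CD9 and MARCKSL1); leaving out 1 number lost ARGLU1, BLOC1S1, SNRPD2 or ST8SIA2. For infants against newborns, BDNF lost it with the mean of probe sets, PTX3 without the block, and leaving out 1 number lost BDNF, PTX3 or SERTAD4BP. The share of calls with DG higher was 53.5%, and 62.9% after centring. Called genes of at least 1 log2 fell from 102 to 42 with the mean of probe sets. Leaving out the replicate block, that is, the pairing by number, gave 2967 genes for both ages, 1736 at 6 months, 1302 at 1 year, 0 for the difference between the ages and 38 for infants against newborns. The count for the difference between ages was 28 with values as deposited, 23 with only genes above the median level, 20 with the mean of probe sets and 13 with the GAPDH covariate, and that for infants against newborns was 38 with the mean of probe sets. Leaving out 1 number gave 3850 to 4396 genes for both ages, 2239 to 3481 at 6 months, 1931 to 2671 at 1 year, 10 to 84 for the difference between ages (84 without number 7, 73 without number 5) and 27 to 195 for infants against newborns (195 without number 16, 161 without number 14, 27 without number 15). The causes were not tested, except that the filter on low genes tests fewer genes.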
